A study of Mus musculus with 6 samples.

Results

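Genes of hepatic glucose metabolism were examined in mouse liver 1 h after interleukin-6 (IL-6): 36 enzymes, transporters and regulators of gluconeogenesis, glycogen handling and glycolysis, chosen by name. The choice was made with earlier results of these data known. On the arrays, 33 of these 36 genes were measured among 19938 genes. Sds, Pfkfb1 and Eno1 had no probe set (a group of probes that reports one transcript) listed under exactly 1 gene symbol and were not analysed here. For a gene with more than 1 probe set, the brightest on average was used.

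All livers came from 10-week-old male C57BL6 mice, for which the labels name no genetic change, and all mice had fasted for 16 h. The control group received saline by intraperitoneal injection (3 arrays), and the other received 100 ng of IL-6 per mouse by the same route (3 arrays), with livers collected 1 h later. Total RNA of whole liver was measured on 1-colour Affymetrix arrays, and values are log2 expression, so a difference of 1 is a doubling. Because whole tissue was measured, fewer cells of a type and less RNA per cell cannot be told apart. The labels do not say in so many words that every array is a separate animal, so p-values refer to the spread between these samples.

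In fasting, the liver supplies the blood with glucose, first by breaking down glycogen and then increasingly by gluconeogenesis from lactate, amino acids and glycerol. Glucagon acts through cAMP and the transcription factor CREB to switch on Pck1, G6pc and the coactivator Ppargc1a, and insulin opposes it. IL-6 signals through gp130 and STAT3, and STAT3 is known to repress gluconeogenic genes in liver.

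The 10 hepatocyte markers lay between 10.45 and 13.4 on the log2 scale, in the upper part of a gene range whose median was 5.77, with array means of 12.61 to 12.71 in saline and 12.63 to 12.70 in IL-6. The 8 measured B, T and NK cell markers and the 10 neutrophil markers lay between 2.83 and 5.89. Of the neutrophil markers 1 was called in limma, S100a8, which encodes a calcium-binding protein abundant in neutrophils. It rose from 3.60, 3.51 and 3.69 to 4.31, 4.35 and 4.08 (0.65 ± 0.09, limma adjusted p = 0.0211), a mean level at the 15.1 percentile of all genes. Over the 10 neutrophil markers, 5 differences were positive and the median was 0.018. The part of S100a8 in the members' values was not tested. On the second principal component over all genes (23.1% of the variance), saline replicate 2 and IL-6 replicate 3 stood apart from the other arrays. The labels name no batch. Results were therefore recomputed without this pair of arrays and without each array in turn. All 33 members lay above the median gene level, and 25 above the 75th percentile.

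No member passed the test. In limma, 0 of 33 members were higher or lower at an adjusted p under 0.05, where 0.421% of all genes passed, 0.386% higher (77 genes) and 0.0351% lower (7 genes). With no adjustment, 6 of 33 members had a limma p under 0.05 (18.2%), against 6.62% of all genes. These were Ppp1r3c, G6pc and Gpt, with lower values after IL-6 (3 of 33, against 2.83% of all genes), and Ldha, Pfkfb3 and Pdk4, with higher values (3 of 33, against 3.78%). The median log2 difference over members was -0.035, and over all genes it was 0.003. The groups did not overlap for 4 members (12.1%, against 11.6% of all genes), namely Ppp1r3c, G6pc and Fbp1 with IL-6 below saline (3 of 33, against 5.48%) and Ldha with IL-6 above (1 of 33, against 6.15%). The combined share was near the background.

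**Figure D1:**
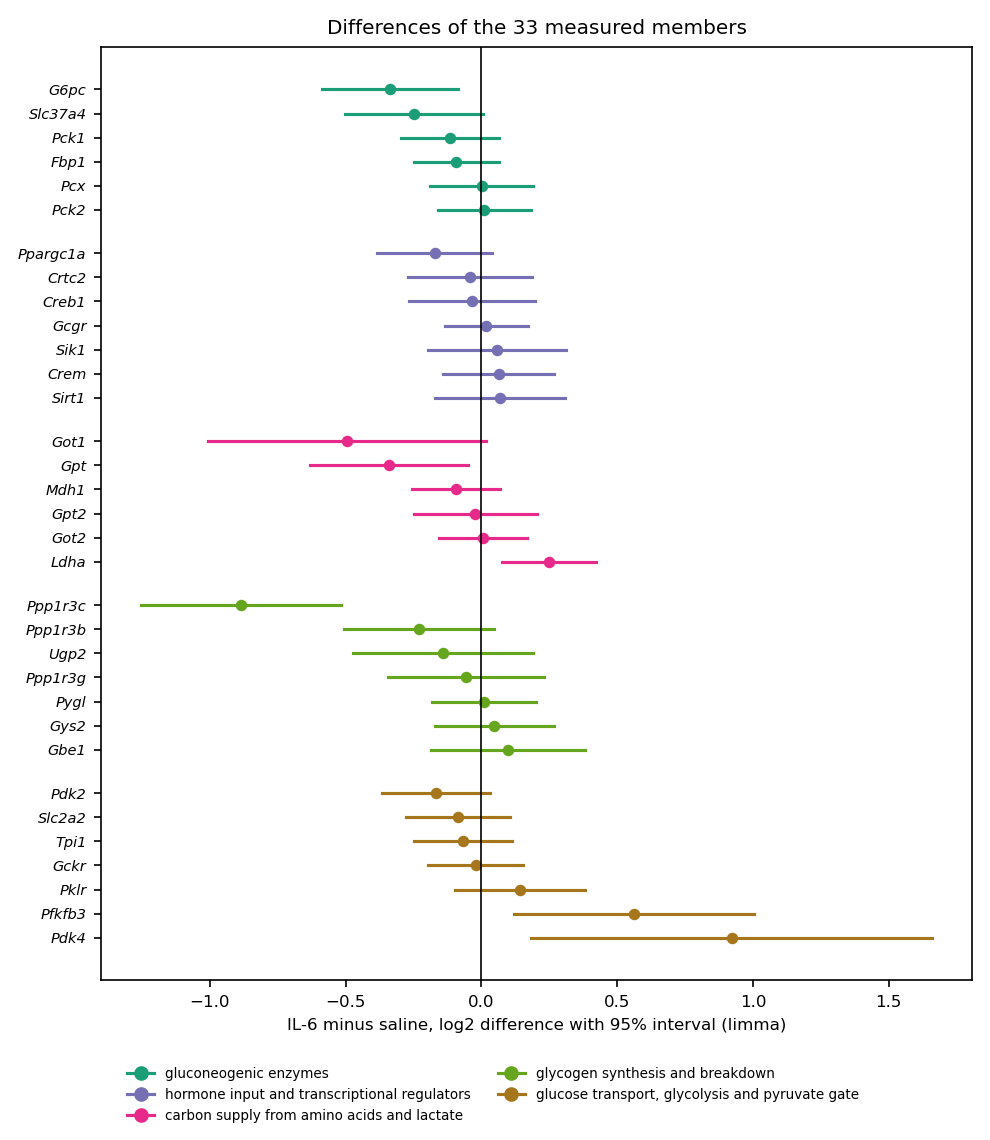
IL-6 minus saline log2 difference (x axis) of each of the 33 measured members (y axis, grouped and coloured by role), with points for the limma estimate and lines for its 95% interval, 3 arrays per group. Ppp1r3c is farthest to the left at -0.89 and Pdk4 farthest to the right at 0.92 with the widest line, while most intervals include 0.

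The intervals bound what the arrays allow. For 27 of 33 members (81.8%) the 95% interval lay within a 1.5-fold change in both directions, as it did for 97.1% of all genes. The other 6 were the members with unadjusted p under 0.05 other than Ldha, together with Got1, which encodes the cytosolic aspartate aminotransferase. It lay within 2-fold for 29 members (87.9%), and for 99.5% of all genes.

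No gluconeogenic enzyme passed the test. G6pc encodes the catalytic subunit of glucose-6-phosphatase, which releases free glucose. Its values were 11.14, 10.79 and 10.70 in saline and 10.58, 10.50 and 10.54 after IL-6. Every IL-6 array was below every saline array, by a narrow margin from saline replicate 3, and saline replicate 1 stood highest. The log2 difference was -0.34 ± 0.11 (standard error), 1.26 times higher with saline (95% interval 1.06 to 1.503), with a limma adjusted p of 0.532. Without saline replicate 1 the difference was -0.21, smaller in size than that of Slc37a4 without the same array (-0.35).

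Slc37a4 carries glucose-6-phosphate into the endoplasmic reticulum, where glucose-6-phosphatase acts. Its values were 10.94, 11.32 and 11.19 in saline and 11.02, 10.75 and 10.93 after IL-6. The groups overlapped through saline replicate 1, and the difference was -0.25 ± 0.11 (limma adjusted p = 0.764). It was -0.35 without saline replicate 1 and -0.16 without saline replicate 2.

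Pck1 encodes the cytosolic phosphoenolpyruvate carboxykinase, the classic transcriptionally controlled enzyme of the pathway. Its values were 12.37, 12.47 and 12.39 in saline and 12.18, 12.37 and 12.33 after IL-6. The groups met at 12.37, and IL-6 replicate 1 was lowest. The difference was -0.12 ± 0.08 (limma adjusted p = 0.899), and the interval reached no further than 1.23 times higher with saline. Without IL-6 replicate 1 the difference was -0.057.

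Fbp1, fructose-1,6-bisphosphatase, had values of 12.26, 12.27 and 12.25 in saline and 12.17, 12.12 and 12.21 after IL-6. All IL-6 arrays were lower, but the difference was only -0.09 ± 0.07 (limma adjusted p = 0.904). Pcx, pyruvate carboxylase, which makes the oxaloacetate that Pck1 uses, had 10.70, 10.90 and 10.84 against 10.84, 10.72 and 10.89, a difference of 0.001 ± 0.085. The mitochondrial carboxykinase gene Pck2 went from 6.53 ± 0.04 to 6.54 ± 0.08 (SD, n = 3). For Pcx and Pck2 the sign of the difference changed between settings and shows no direction. Averaged over all 6 enzymes relative to the saline mean, the IL-6 arrays stood at -0.11, -0.17 and -0.11 and the saline arrays between -0.02 and 0.03. G6pc and Slc37a4 contributed most of this gap.

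**Figure D2:**
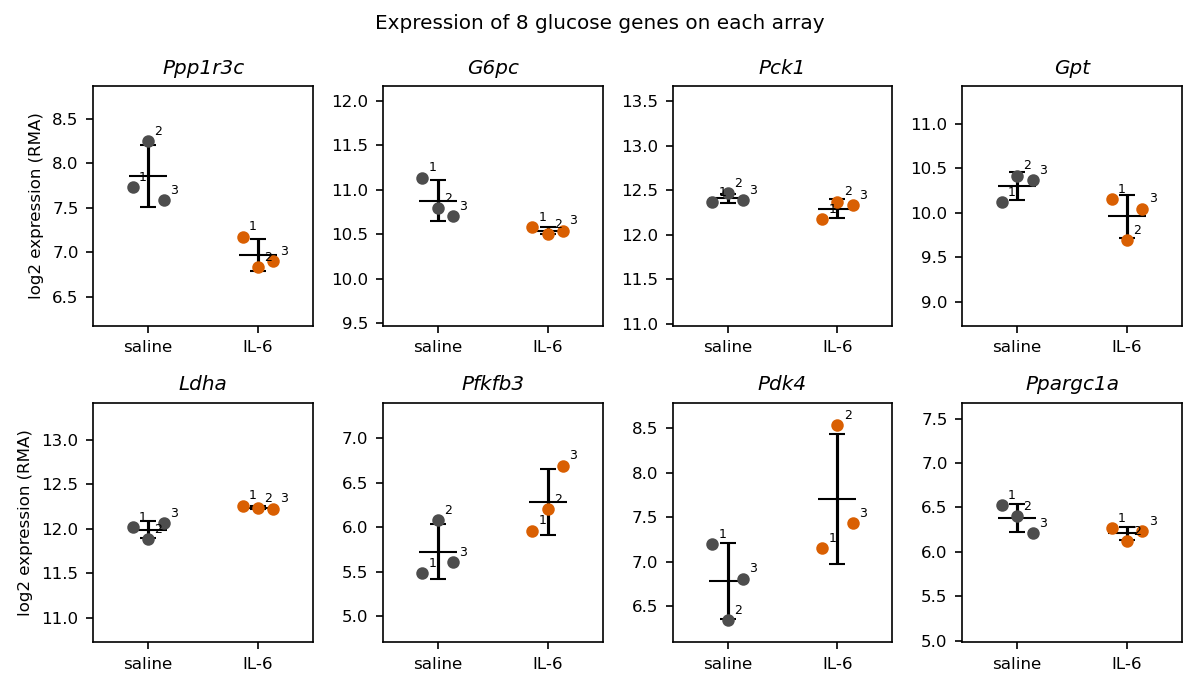
Log2 expression (y axis, all panels spanning the same range) of 8 members on each saline and IL-6 array (x axis), with points numbered by replicate and bars for the mean and SD of 3 arrays. Ppp1r3c, G6pc and Ldha show no overlap between groups, while the spread of Pdk4 and Pfkfb3 is wide in both groups.

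The promoters of 29 of the 36 members were found in the RefSeq table (build GRCm38.p6), as windows from 250 bases before to 50 after the start. The stretches before the start of Pck1 and G6pc are shown because these genes carry the pathway's classic cAMP response. Ldha is shown as the only member with the full cAMP response element TGACGTCA, and Ppp1r3c as the member with the lowest difference. They are at chr2:173152823-173153072 (plus strand), chr11:101367466-101367715 (plus), chr7:46845554-46845803 (plus) and chr19:36736605-36736854 (minus), and capitals mark the element or its half-site TGACG, read on either strand as CGTCA.
Pck1 promoter: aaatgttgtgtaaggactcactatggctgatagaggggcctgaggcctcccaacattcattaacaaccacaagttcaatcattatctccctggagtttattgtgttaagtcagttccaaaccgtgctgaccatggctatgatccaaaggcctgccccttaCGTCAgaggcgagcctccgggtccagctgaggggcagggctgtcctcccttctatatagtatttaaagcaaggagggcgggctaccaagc
G6pc promoter: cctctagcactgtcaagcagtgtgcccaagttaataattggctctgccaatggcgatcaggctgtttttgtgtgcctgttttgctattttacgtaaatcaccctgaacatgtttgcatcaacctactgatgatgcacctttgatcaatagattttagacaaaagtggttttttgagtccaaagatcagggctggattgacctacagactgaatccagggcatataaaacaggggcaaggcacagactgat
Ldha promoter: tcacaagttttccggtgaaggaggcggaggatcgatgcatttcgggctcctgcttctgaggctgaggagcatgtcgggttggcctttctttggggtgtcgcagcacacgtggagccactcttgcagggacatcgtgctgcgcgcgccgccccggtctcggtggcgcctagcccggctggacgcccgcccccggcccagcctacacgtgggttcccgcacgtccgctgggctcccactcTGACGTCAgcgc
Ppp1r3c promoter: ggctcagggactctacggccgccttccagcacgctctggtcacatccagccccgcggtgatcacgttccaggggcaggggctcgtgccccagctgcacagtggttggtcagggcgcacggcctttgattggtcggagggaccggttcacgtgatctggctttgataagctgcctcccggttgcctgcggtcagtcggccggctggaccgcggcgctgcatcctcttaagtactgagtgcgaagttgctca
The full element stood in 1 of 29 member genes and in 2.03% of all genes in the table. It was in the Ldha window shown, while another Ldha window, not shown, held only the half-site. The half-site, which every full element also holds, stood in 9 of 29 member genes (31%), against 23% of all genes. These were Ldha, Pck1, Pdk2, Pfkfb3, Ppargc1a, Ppp1r3g, Pygl, Sirt1 and Slc37a4. Counted by window, the half-site stood in 12 of the members' 42 windows (28.6%), against 20.8% of all windows. In Pck1 it began 90 bases before the start, and in G6pc and Ppp1r3c neither string was in the window. The STAT motif TTCNNNGAA, searched on both strands, was in 0 of 42 member windows and in 8.30% of all windows, and TTCCNGGAA, a subset of it, in 0 of 42 and in 1.15%. These are letter matches only, and variant forms of the cAMP response element were not searched.

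None of the regulators that link glucagon to these enzymes passed the test. Ppargc1a, the fasting coactivator, had values of 6.53, 6.40 and 6.21 in saline and 6.27, 6.12 and 6.23 after IL-6. Saline replicate 3 lay inside the IL-6 range, and the difference was -0.17 ± 0.09 (limma adjusted p = 0.850). Its other probe set read 6.05, 6.19 and 5.67 in saline and 5.41, 5.39 and 5.84 after IL-6, also overlapping. That difference was -0.43 ± 0.18, with an unadjusted limma p of 0.0492 and an adjusted p of 0.764 over all probe sets. With the mean of both probe sets the difference was -0.30 ± 0.12, with an unadjusted limma p of 0.0282 and an adjusted p of 0.649. Without saline replicate 3 the brighter probe set alone gave -0.26, with an unadjusted limma p of 0.0249 and an adjusted p of 0.668. The probe sets had the same sign and differed in size, and these data do not show which of them reports the gene better.

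Gcgr, the glucagon receptor gene, was the steadiest member. Its values were 10.08, 10.05 and 10.07 in saline and 10.06, 10.08 and 10.11 after IL-6, a difference of 0.02 ± 0.07, and its spread within groups (SD 0.019) was at the 0.283 percentile of all genes. Its interval allowed at most a 1.13-fold rise. Creb1, which encodes CREB itself, had a difference of -0.03 ± 0.10, and its coactivator Crtc2 had -0.04 ± 0.10. Crem, whose short products repress cAMP-driven transcription, had 0.06 ± 0.09, and Sik1, a cAMP-induced kinase that keeps Crtc2 out of the nucleus, had 0.06 ± 0.11. The deacetylase gene Sirt1 had 0.07 ± 0.11. All of these groups overlapped, the limma adjusted p-values were 0.962 or more, and the signs of Crem, Creb1, Crtc2, Sik1, Sirt1 and Gcgr each turned in at least 1 setting.

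Genes that feed carbon into the pathway included both directions. Ldha encodes the lactate dehydrogenase subunit that interconverts lactate and pyruvate. Its values were 12.02, 11.88 and 12.07 in saline and 12.26, 12.23 and 12.23 after IL-6. All IL-6 arrays were above all saline arrays and close together. The difference was 0.25 ± 0.08, a 1.19-fold higher level (95% interval 1.06 to 1.34; limma adjusted p = 0.485), and it lay between 0.20 and 0.29 whichever array was left out.

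Neither cytosolic aminotransferase gene passed the test. Gpt, the cytosolic alanine aminotransferase, had 10.12, 10.42 and 10.37 in saline and 10.15, 9.69 and 10.05 after IL-6. IL-6 replicate 2 was far below the rest, and IL-6 replicate 1 lay above saline replicate 1. The difference was -0.34 ± 0.13 (limma adjusted p = 0.652), and without IL-6 replicate 2 it was -0.20. Got1 had 11.80, 12.01 and 11.32 against 11.59, 10.71 and 11.33, with IL-6 replicate 2 again lowest. Its difference was -0.50 ± 0.23 (limma adjusted p = 0.768), or -0.25 without that array, and its spread within groups was at the 99.6 percentile of all genes.

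The mitochondrial partners showed less. Gpt2 had a difference of -0.02 ± 0.10 and Got2 of 0.005 ± 0.072, and both signs turned between settings. The second probe set of Got2 gave 0.003. Mdh1, cytosolic malate dehydrogenase, which moves oxaloacetate equivalents between compartments, had -0.09 ± 0.07 (limma adjusted p = 0.909). No test compared the cytosolic with the mitochondrial forms.

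The lowest difference of any member belonged to the glycogen gene Ppp1r3c, which encodes PTG, a subunit that brings protein phosphatase 1 to glycogen and favours its synthesis. Its values were 7.73, 8.25 and 7.59 in saline and 7.17, 6.83 and 6.90 after IL-6. Every IL-6 array was below every saline array, and saline replicate 2 was highest. The difference was -0.89 ± 0.16, 1.85 times higher with saline (95% interval 1.43 to 2.39). Its unadjusted limma p of 0.000384 ranked 100 among 19938 genes, and the adjusted p of 0.0765 missed the threshold. The exact two-sided permutation test gave p = 0.1, the smallest that 3 against 3 allows.

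The side of the threshold depended on the model for Ppp1r3c. The size could change only where arrays were rescaled, normalized again, weighted or left out, since the other settings leave the difference as it was. The limma adjusted p was 0.0312 when the prior variance followed expression level, 0.0418 with a robust version of that prior, and 0.0388 when genes below the median level were left out. It was 0.0514 with arrays centred on their medians and 0.331 when every probe set was tested. Without any single array it ran from 0.0585 to 0.293, with differences from -1.02 to -0.69. Without both arrays set apart on the second component the difference was -0.65 (limma adjusted p = 0.339).

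**Figure D3:**
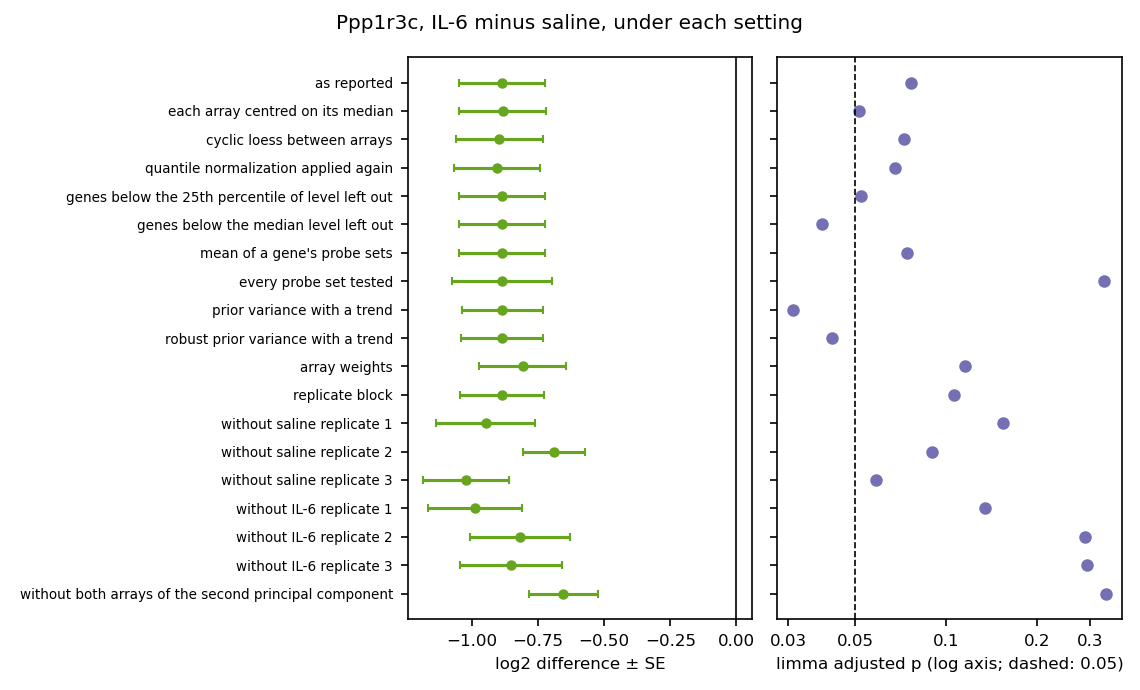
Ppp1r3c under the reported fit and each other setting (y axis): left, the IL-6 minus saline log2 difference with its standard error, and right, the limma adjusted p on a log axis with the 0.05 threshold dashed. The difference stays between -1.02 and -0.65 and the adjusted p lies on both sides of the line, from 0.0312 to 0.339.

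The related targeting subunits did not show a difference of that size. Ppp1r3b, the main liver subunit, had 7.82, 8.25 and 7.98 in saline and 7.92, 7.61 and 7.83 after IL-6, a difference of -0.23 ± 0.12 (limma adjusted p = 0.836). Leaving out saline replicate 2 gave -0.11, and leaving out IL-6 replicate 2 gave -0.14. Ppp1r3g, a subunit that varies with fasting and feeding, had -0.06 ± 0.13. Whether Ppp1r3c differed from these relatives was not tested.

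The enzymes that build and break glycogen overlapped between groups. Gys2, liver glycogen synthase, had values of 9.95, 10.20 and 10.17 in saline and 10.07, 10.09 and 10.30 after IL-6, a difference of 0.05 ± 0.10. Pygl, liver glycogen phosphorylase, had 9.78, 9.88 and 9.84 against 9.78, 9.76 and 9.99, a difference of 0.01 ± 0.09. Gbe1, the branching enzyme, had 0.10 ± 0.13, and Ugp2, which makes UDP-glucose, had -0.14 ± 0.15 with IL-6 values from 8.05 to 8.70. As single arrays were left out, Gbe1 ran from 0.022 to 0.24, and it was -0.051 without both arrays of the second component. Ugp2 was at -0.002 when IL-6 replicate 2 was left out and at -0.33 when IL-6 replicate 3 was. None of these 4 glycogen enzymes had a limma adjusted p under 0.941 with all arrays. The intervals allowed at most a 1.20-fold higher Gys2 and a 1.15-fold higher Pygl after IL-6.

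On the glycolytic side, the 2 highest differences of all members were found, both with a wide spread. Pdk4 encodes a fasting-induced kinase that shuts pyruvate dehydrogenase and so spares pyruvate for glucose production. Its values were 7.19, 6.35 and 6.81 in saline and 7.15, 8.54 and 7.43 after IL-6. IL-6 replicate 2 was far above all others, and IL-6 replicate 1 lay below saline replicate 1. The difference was 0.92 ± 0.33, 1.90-fold higher (95% interval 1.14 to 3.16; limma adjusted p = 0.598), and 0.51 without IL-6 replicate 2. Its spread within groups was at the 99.9 percentile of all genes.

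Pfkfb3 encodes an enzyme that makes fructose-2,6-bisphosphate, the activator of glycolysis and inhibitor of Fbp1. Its values were 5.49, 6.08 and 5.61 in saline and 5.96, 6.21 and 6.69 after IL-6. Only saline replicate 2 and IL-6 replicate 1 crossed, and the difference was 0.56 ± 0.20, 1.48-fold higher (95% interval 1.09 to 2.01; limma adjusted p = 0.583). It ran from 0.36 to 0.74 as single arrays were left out. Macrophages also express Pfkfb3: the 10 measured Kupffer cell and macrophage markers averaged 6.48, 6.42 and 6.30 in saline and 6.42, 6.68 and 6.40 after IL-6, with 9 of 10 differences positive and 0 called in limma. Differences were also positive for 8 of 10 endothelial, 7 of 10 hepatocyte and 2 of 8 B, T and NK cell markers, and negative for 48.9% of all genes. The part of macrophages in the Pfkfb3 values was not tested.

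The other genes of this group differed little. Pklr, liver pyruvate kinase, had 8.04, 8.23 and 8.43 in saline and 8.27, 8.43 and 8.43 after IL-6, a difference of 0.14 ± 0.11 (limma adjusted p = 0.904). Slc2a2, the glucose transporter GLUT2, had 10.12, 10.07 and 10.30 against 10.05, 10.03 and 10.15, a difference of -0.09 ± 0.08. Pdk2, another pyruvate dehydrogenase kinase of the liver, had -0.17 ± 0.09 (limma adjusted p = 0.834). Tpi1, triose phosphate isomerase, had -0.07 ± 0.08, and Gckr, which holds glucokinase in the nucleus, had -0.02 ± 0.08. As a group the mean and the median differed in sign: relative to saline the IL-6 arrays averaged 0.04, 0.26 and 0.25, while the median difference over the 7 genes was -0.02, since Pdk4 and Pfkfb3 set the mean.

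**Figure D4:**
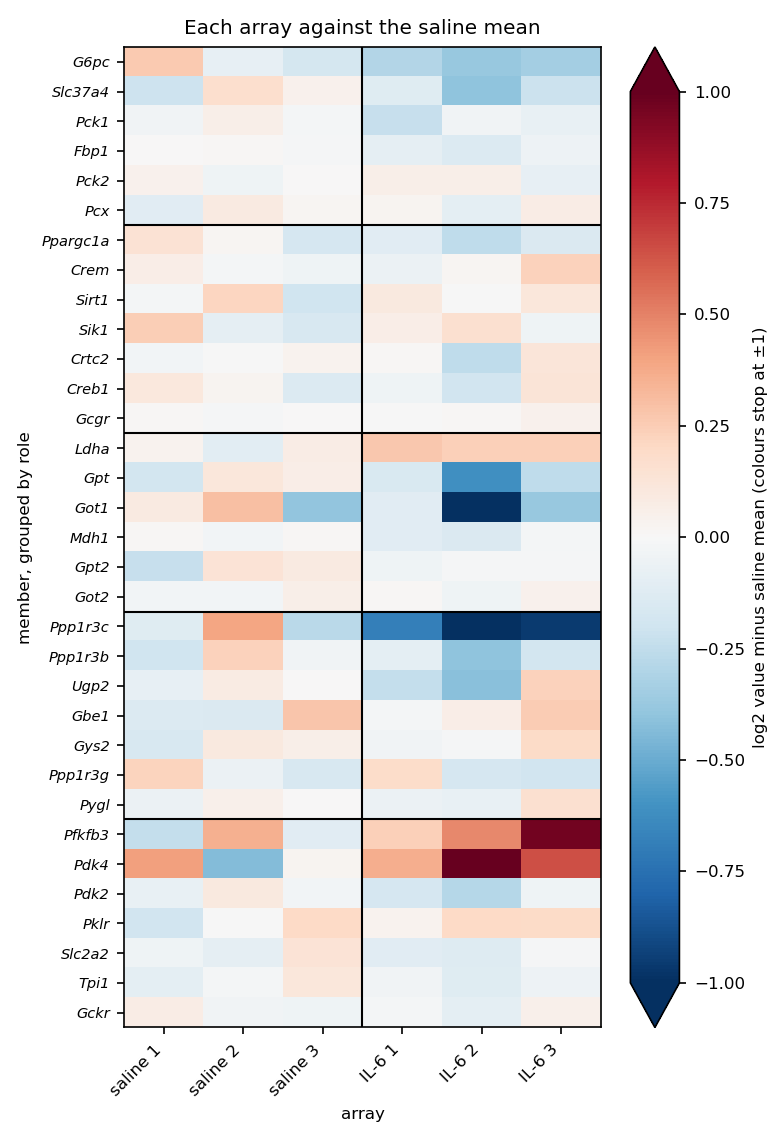
Log2 value minus the saline mean (colour, stopping at ±1) of each of the 33 members (rows, grouped by role) on each array (columns). IL-6 replicate 2 carries the lowest value of 18 members, among them Got1 and Gpt, and the highest of Pdk4.

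Several members varied strongly between arrays of a group. The spread within groups lay above the 90th percentile of all genes for 7 of 33, with Pdk4, Got1, Pfkfb3, Ppp1r3c and Ugp2 above the 95th. Fbp1, like Gcgr, was among the steadiest, at the 2.06 percentile. IL-6 replicate 2 was the lowest of the 6 arrays for 18 of 33 members (54.5%), against 16.9% of all genes, and saline replicate 2 the highest for 11 (33.3%, against 15.5%). These members share arrays and are not independent, and these shares are a description. Without IL-6 replicate 2 the median difference over members was -0.002, and without both arrays of the second component -0.074.

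Other genes of the pathway, from 6 lists chosen with earlier results of these data known, were read beside the members. Over all genes, 0.421% were called in limma and 6.62% had an unadjusted p under 0.05. Of 21 other glycolysis and hexose phosphate enzymes, 24 other glycogen genes and 16 other pyruvate and lactate genes, 0 were called in limma and 0 had an unadjusted p under 0.05, with list medians of 0.009, 0.004 and 0.03. The smallest p-values there belonged to Pfkfb2 (-0.21 ± 0.12), the glycogen targeting subunit Ppp1r3f (-0.16 ± 0.07), the glycogen-binding protein gene Stbd1 (-0.19 ± 0.09) and the lactate transporter gene Slc16a1 (0.19 ± 0.11). Their limma adjusted p-values were 0.768 or more.

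The 18 other amino acid and glycerol supply genes had a median difference of -0.09, with 15 of 18 negative against 48.9% of all genes. Of the glycerol genes, Gpd1 (0.16 ± 0.11) and Gpd2 (0.15 ± 0.14) were positive, and Aqp9 had -0.005 ± 0.080. The list also held the urea cycle genes Cps1 (-0.10), Asl (-0.20), Arg1 (-0.13) and Otc (-0.14). All IL-6 arrays lay below all saline arrays for 4 of 18 (22.2%, against 5.48% of all genes). In limma 0 were called and 2 had an unadjusted p under 0.05 (11.1%, against 6.62% of all genes). These were Slc25a22, a mitochondrial glutamate carrier (-0.25 ± 0.11), and Hal, which starts histidine breakdown (-0.34 ± 0.15). Hal, like Gpt and Got1, was lowest in IL-6 replicate 2, at 10.67. Of 23 cAMP and CREB pathway genes, 0 were called and 1 had an unadjusted p under 0.05 (4.35%, against 6.62% of all genes). It was the CREB coactivator gene Crtc3, with 6.72, 6.76 and 6.62 in saline and 6.89, 6.82 and 7.11 after IL-6 (limma adjusted p = 0.650).

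The list of other regulators of glucose production held called genes: 2 of 23 rose and 0 fell in limma, where 0.386% of all genes rose and 0.0351% fell. An unadjusted p under 0.05 was found for 9 of 23, against 6.62% of all genes, 6 higher (against 3.78%) and 3 lower (against 2.83%). This list was chosen with earlier results of these data known and includes Stat3, so these shares are a description only. Onecut1, a liver transcription factor gene, rose from 6.31, 6.26 and 6.46 to 6.95, 6.84 and 7.18 (difference 0.64 ± 0.10, limma adjusted p = 0.0333). Stat3, which carries the IL-6 signal, rose from 8.48, 8.57 and 8.52 to 9.18, 8.89 and 9.07 (0.52 ± 0.09, limma adjusted p = 0.04996). Each call held without IL-6 replicate 2 and was lost without any other single array (to a limma adjusted p of at most 0.144 for Onecut1 and 0.220 for Stat3). Both calls were also lost when every probe set was tested (limma adjusted p = 0.202 for Onecut1 and 0.217 for Stat3) and without both arrays of the second component (0.307 and 0.411). The Stat3 call was lost as well with the replicate block (limma adjusted p = 0.132), with arrays centred on their medians (0.0514) and with quantile normalization applied again (0.0506).

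The 3 lower ones of that list were Tob1, Trib3 and Klf15, in each of which all IL-6 arrays lay below all saline arrays (3 of 23, against 5.48% of all genes). Tob1, an antiproliferative gene, had -0.54 ± 0.12 (limma adjusted p = 0.157). Trib3, a pseudokinase gene linked to insulin signalling, had -0.27 ± 0.08, and Klf15, a fasting factor that drives amino acid breakdown genes, had -0.28 ± 0.08, with limma adjusted p-values of 0.403 and 0.414. The gluconeogenic factor genes Foxo1 (0.01 ± 0.09) and Cebpb (0.38 ± 0.12, limma adjusted p = 0.522) did not pass, and both are named outside the rule for named genes. All IL-6 arrays lay above all saline arrays for 5 of 23 genes, against 6.15% of all genes. These were Onecut1, Stat3, the lipogenic factor gene Srebf1 (0.24 ± 0.07, limma adjusted p = 0.437), the insulin-repressed gene Igfbp1 (0.48 ± 0.18, limma adjusted p = 0.652) and Mlxipl, which encodes the glucose-responsive factor ChREBP (0.21 ± 0.09, limma adjusted p = 0.686). Srebf1, Igfbp1 and Mlxipl did not pass, and they too are named outside that rule.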

How the data were processed

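Total RNA of mouse liver was measured on 6 Affymetrix arrays, 3 per group. The authors deposited log2 values per probe set, and the submitters' processing notes name RMA for them. Which version, options and genome build were used is not given in the sources used here. RMA equalises the arrays' distributions, which can compress large changes. Of 35556 probe sets, 21789 carried 1 gene symbol and were reduced to 19938 genes. No filter on level was applied. The number of arrays limits the precision, and the median over genes of a difference's standard error was 0.089.

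IL-6 was compared with saline across all genes with limma 3.58.1 (R 4.3.3; lmFit, eBayes, two-sided, Benjamini-Hochberg over 19938 genes, threshold 0.05), and intervals are limma's unadjusted 95% intervals. The fit was tested on simulated data. Alternatives covered scaling, filters, probe sets, variance priors, array weights, a block, thresholds and left-out arrays.

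The members, lists, rules and alternatives were chosen with earlier results of these data known. All measured members were named, with array values for those with unadjusted p under 0.05 and for others chosen by role. From other lists, called genes and up to 3 of smallest p were named. Array values of Slc37a4, Got1 and Ppp1r3b, and the genes Foxo1, Cebpb, Srebf1, Igfbp1, Mlxipl and S100a8, were added after seeing the values. So were the genes Gpd1, Gpd2, Aqp9, Cps1, Asl, Arg1 and Otc. Promoters came from RefSeq. Figures used matplotlib 3.10.9.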

Additional observations from a re-analysis of the deposited data

How the results depend on the processing

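The count of members called was 0 higher under each of 20 alternatives. It was 1 lower (Ppp1r3c) with a trended prior variance, with the robust version, with genes below the median level left out and at an adjusted p under 0.10, and 0 under the others. Counts over all genes, 77 higher and 7 lower, became 16 and 1 when every probe set was tested, 31 and 2 without both arrays of the second principal component, and 40 and 3 at an adjusted p under 0.01, with 12 lower under 0.10. Leaving out single arrays gave 45 to 67 higher and 3 to 5 lower genes, with 45 higher if saline replicate 3 was left out, 46 if IL-6 replicate 1 was, and 46 if IL-6 replicate 3 was, and with 3 lower if IL-6 replicate 1 was dropped and 4 if saline replicate 2 was. The members' median difference ran from -0.065 to -0.002 without single arrays and was -0.074 without both arrays. At unadjusted limma p under 0.05, 4 to 9 of 33 members passed over the alternatives (12.1% to 27.3%), against 5.89% to 8.41% of all genes.

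Of 660 member values under alternatives, 38 changed sign, all within 0.067 of 0 and none called, in 15 members. The other 18 members kept their sign. Many of the 660 values could not change sign, because some settings leave the difference itself as it was. These were the level filters, the test of every probe set, the variance priors, the replicate block and the other thresholds. Values that changed sign were Pcx -0.004 (cyclic loess between arrays); Pcx -0.031, Got2 -0.024 (quantile normalization applied again); Pcx -0.008, Got2 -0.007, Pygl -0.017, Ppp1r3g 0.020 (array weights); Gcgr -0.001, Crem -0.031, Gpt2 0.043, Got2 -0.028, Gbe1 -0.051, Pygl -0.040 (without both arrays). Without single arrays the differences ran -0.12 to 0.045 for Creb1, -0.020 to 0.12 for Crem, -0.12 to 0.067 for Crtc2, -0.058 to 0.019 for Gckr, -0.015 to 0.033 for Got2, -0.14 to 0.047 for Gpt2, -0.031 to 0.096 for Gys2, -0.012 to 0.057 for Pck2, -0.055 to 0.049 for Pcx, -0.18 to 0.052 for Ppp1r3g, -0.065 to 0.052 for Pygl, -0.020 to 0.18 for Sik1, -0.030 to 0.18 for Sirt1.

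Same-numbered arrays did not deviate together (correlations 0.08, -0.12 and -0.09, and 2 of 6 arrays matched their own number best). No pairing by number was seen, but with 3 arrays per group this check cannot exclude it. With the replicate block, 0 members were called, and 59 genes were higher and 6 lower. Each number occurs once per group, so the block cannot change a difference, and the median stayed at -0.035 by design. The cause of any change was not tested.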
